A study of Homo sapiens with 6 samples.

Results

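The 43 genes described here encode subunits of 4 chromatin complexes: 16 of SWI/SNF, 7 of Polycomb repressive complex 2 (PRC2), 7 of Polycomb repressive complex 1 (PRC1) and 13 of NuRD. They were chosen by symbol as named subunits of these complexes, with earlier results of these data known, out of 58825 genes in the deposited tables. All 43 had enough counts to enter the comparison, in which 20295 genes were tested. The cells were NCI-H460, a human line from a large cell lung carcinoma that the sample labels call lung adenocarcinoma, grown in RPMI-1640 and infected with lentivirus carrying a short hairpin RNA (shRNA). One group carried a control hairpin (NC-shRNA, 3 libraries) and the other a hairpin against PRMT5 (PRMT5-shRNA, 3 libraries). The sample titles name the control GFPkd, while the paper calls it control or NC-shRNA and does not mention GFP. Both groups were therefore infected cells, and the methods describe stably transfected cells under puromycin selection. The labels do not say which of the PRMT5 hairpins the study designed was sequenced, nor whether the replicates of a group came from separate infections, so the p-values measure the spread between these libraries of 1 cell line.

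SWI/SNF uses the energy of ATP to slide or evict nucleosomes, and is built around an ATPase, SMARCA4 or SMARCA2. PRC2 methylates histone H3 at lysine 27 and PRC1 places ubiquitin on histone H2A, and together they keep developmental genes such as the HOX clusters silent. NuRD joins a nucleosome-remodelling ATPase, CHD3 or CHD4, to the histone deacetylases HDAC1 and HDAC2. PRMT5 is an arginine methyltransferase that makes symmetric dimethylarginine on histones and other proteins, and it has been found with SWI/SNF and with NuRD carrying MBD2. The data ask whether the transcripts of these complexes differed in amount when the PRMT5 transcript was lowered. They hold no measure of the proteins, of complex assembly or of methylation.

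The deposited counts were estimated counts per gene, with totals of 53531257 to 70518401 per library. In each library 1214 to 1319 genes held exactly 4 counts, while 462 to 546 held 3 and 283 to 308 held 5, and a count is therefore not equated with 1 sequenced fragment. In NC-shRNA cells 9604, 8812 and 7966 counts were from PRMT5, and in PRMT5-shRNA cells 2502, 3188 and 2203. Its level in CPM (counts scaled to the TMM-adjusted library size) fell to 32.6% of NC-shRNA, a change of -1.62 on the log2 scale (standard error 0.0943), which passed edgeR's quasi-likelihood test (adjusted p = 0.0063). Of the defining markers of lung adenocarcinoma (NKX2-1, NAPSA, SFTPA1, SFTPB and SFTPC), the summed level was only 0.115 to 0.563 CPM in NC-shRNA and 0.114 to 0.852 CPM in PRMT5-shRNA cells. The summed level of 6 epithelial markers, mostly KRT8 and KRT18, was 1753 to 1879 CPM in NC-shRNA and 1523 to 1650 CPM in PRMT5-shRNA cells. Markers of 3 other cell types were also summed over 5 genes each. Immune markers summed to 2.74 to 3.45 CPM in NC-shRNA and 3.39 to 4.02 CPM in PRMT5-shRNA cells, with CD3E at 0. Endothelial markers summed to 10.4 to 11.5 and 14.8 to 19.1 CPM, and fibroblast markers to 113 to 137 and 104 to 126 CPM, with COL1A2 at 0. Of the markers tested, 1 of 6 epithelial genes was lower and 1 of 4 fibroblast genes higher at an unadjusted p under 0.05. Of the immune genes, 0 of 3 met this threshold in edgeR's quasi-likelihood test. Among all genes tested 12.8% met it, 6.54% higher and 6.29% lower. Of the endothelial markers tested, 3 of 4 met it, all higher in PRMT5-shRNA cells. One of them, VWF, was at 128, 105 and 122 counts in PRMT5-shRNA cells and listed at 0 in all 3 controls (adjusted p = 0.0341 in edgeR's quasi-likelihood test). The part of these marker differences in the values below was not tested, and fewer cells of a kind and less RNA per cell cannot be told apart in bulk RNA.

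The transcripts of the 4 complexes were at nearly the same level in PRMT5-shRNA and NC-shRNA cells. None of the 43 subunit genes passed an adjusted p of 0.05 (edgeR's quasi-likelihood test, adjusted by Benjamini-Hochberg over all 20295 genes), where 0.069% of all genes tested did, and the lowest adjusted p of a subunit gene was 0.245. DESeq2 called 1 of them, GATAD2A, which is described with NuRD. In the PRMT5-shRNA cells 19 subunit genes had the higher mean fitted level and 24 the lower, which turned to 31 higher and 12 lower on log2(FPKM + 1) and became 14 and 29 after a correction for gene length. The median over all genes tested moved the same way, from 0.0075 to 0.039 and to -0.032 in these settings. The 0.039 was over a smaller set, 14707 genes with a mean FPKM of at least 0.5. Over 32052 genes without that filter it was 0.013, while the subunit genes stayed at 31 higher and 12 lower. In the main fit the log2 fold changes of the subunit genes ran from -0.41 to 0.43. Their median log2 fold change was -0.01, beside 0.01 over all genes tested and -0.02 over the 9171 genes expressed at least as highly as the lowest of them. None differed by more than 1.5-fold, beside 14.5% of all genes tested and 2.25% of the genes at least as highly expressed.

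At an unadjusted p under 0.05, 3 of the 43 (6.98%) were counted: PHC2, which was higher, and EED and GATAD2A, which were lower. This share stood below the background, since 12.8% of all genes tested (6.54% higher and 6.29% lower) and 17.7% of the genes at least as highly expressed (7.45% higher and 10.2% lower) met the same threshold. In 12 of the 43 the CPM values of the groups did not overlap, 6 higher and 6 lower in PRMT5-shRNA cells, or 27.9%. The same was true of 21.7% of all genes tested and of 27.8% of the genes at least as highly expressed, so this share was close to the background. By direction, 11.0% of all genes tested lay wholly higher and 10.7% wholly lower, and among the genes at least as highly expressed 11.8% and 16.0%.

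The intervals state how large a difference these libraries leave possible. For 39 of the 43 genes the 95% confidence interval of the fold change lay wholly inside 1.5-fold in either direction, beside 45.6% of all genes tested and 81.8% of those at least as highly expressed. The 4 exceptions were GATAD2A of NuRD on the lower side, and PHC1, BMI1 and MBD3 on the higher side. Standard errors of the log2 fold changes ran from 0.0487 to 0.206 with a median of 0.0868. The median size of the log2 fold change, whatever its sign, was 0.078 for the subunit genes and 0.186 for all genes tested.

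**Figure D1:**
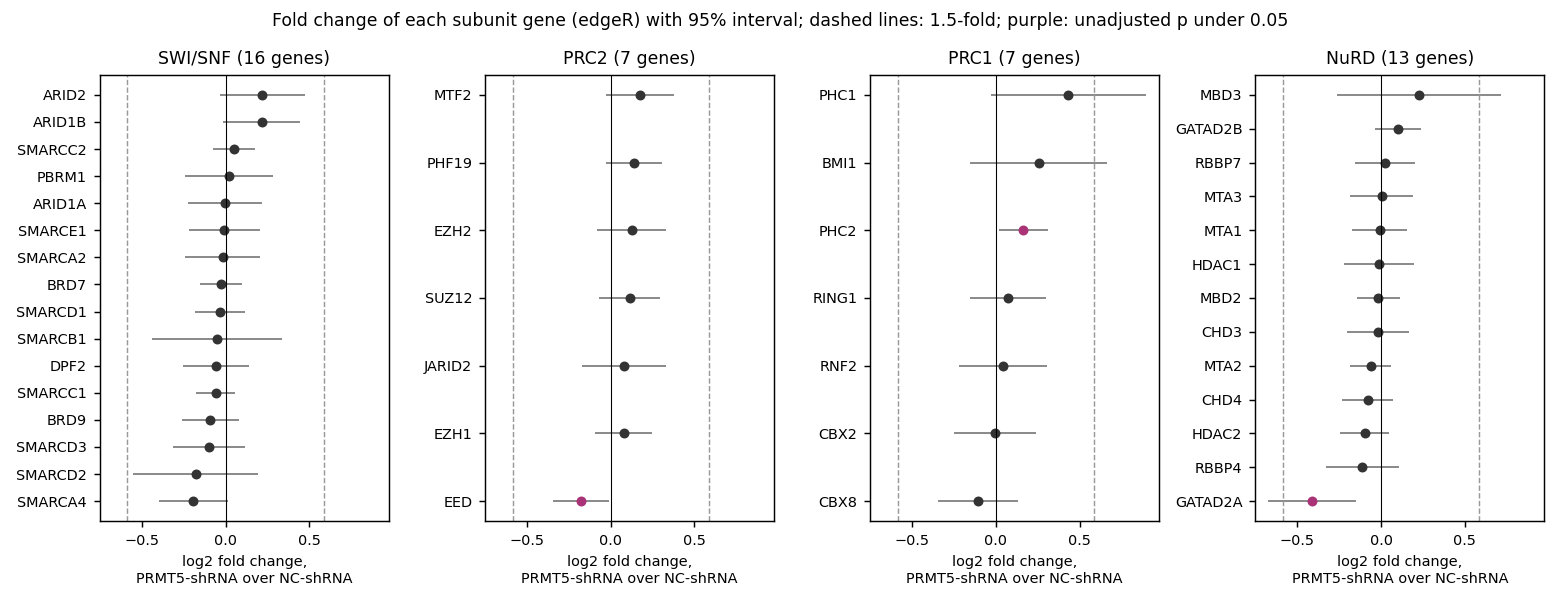
The log2 fold change of each of the 43 subunit genes, PRMT5-shRNA over NC-shRNA (horizontal axis), from edgeR's quasi-likelihood fit of 3 libraries against 3, with its 95% confidence interval as a bar, in 1 panel per complex. Dashed lines mark 1.5-fold and purple points an unadjusted p under 0.05, which EED, PHC2 and GATAD2A reached. Values lie between -0.41 and 0.43. The side of zero on which the SWI/SNF and NuRD medians fall turns from lower to higher on the FPKM scale, where the median of all genes tested also rises.

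The levels of the subunits were compared by FPKM, the authors' value scaled to gene length and library size. The division is by a length nearly fixed for each gene, and it sets genes with long annotated exons low. As implied by the counts and FPKM, that length was 1.11 to 1.32 times the length of all its annotated exons together. In NuRD, mean FPKM over the 6 libraries ran from 2.60 for MTA3 to 37.5 for RBBP7. In SWI/SNF it ran from 0.678 for ARID1B to 24.4 for SMARCC1 and for SMARCD2. In PRC2 it ran from 3.47 for MTF2 to 18.2 for EZH2, and in PRC1 from 1.84 for PHC1 to 13.8 for RING1. Some of these ends depended on the length used. In CPM per kilobase of the longest principal transcript, a scale chosen after seeing the data, the lowest NuRD gene was HDAC2 (9.82, with MTA3 at 14.6), the lowest PRC2 gene JARID2 (4.69, with MTF2 at 5.81) and the highest SWI/SNF gene SMARCC2 (41.9, with SMARCD2 at 39.3 and SMARCC1 at 34.2). In the order of mean FPKM within each complex, 22 of the 39 pairs of neighbours overlapped in their FPKM ranges over the 6 libraries. These ranges alone did not rank them, among them SMARCC1 and SMARCD2, JARID2 and MTF2, and MBD3 and MTA3. The ranges set aside that both genes were measured in the same library. Within every library JARID2 was above MTF2 in FPKM, most narrowly in NC-shRNA replicate 2 (3.05 against 3.04). For SMARCC1 and SMARCD2, and for MBD3 and MTA3, the order differed between libraries. The remaining 17 pairs were apart in FPKM, among them RBBP7 above HDAC1, EZH2 above PHF19 and RING1 above CBX2. Per kilobase of the longest principal transcript RING1 and CBX2 were at 16.7 and 16.0 CPM, so the gap of this pair depended on the length used.

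**Figure D2:**
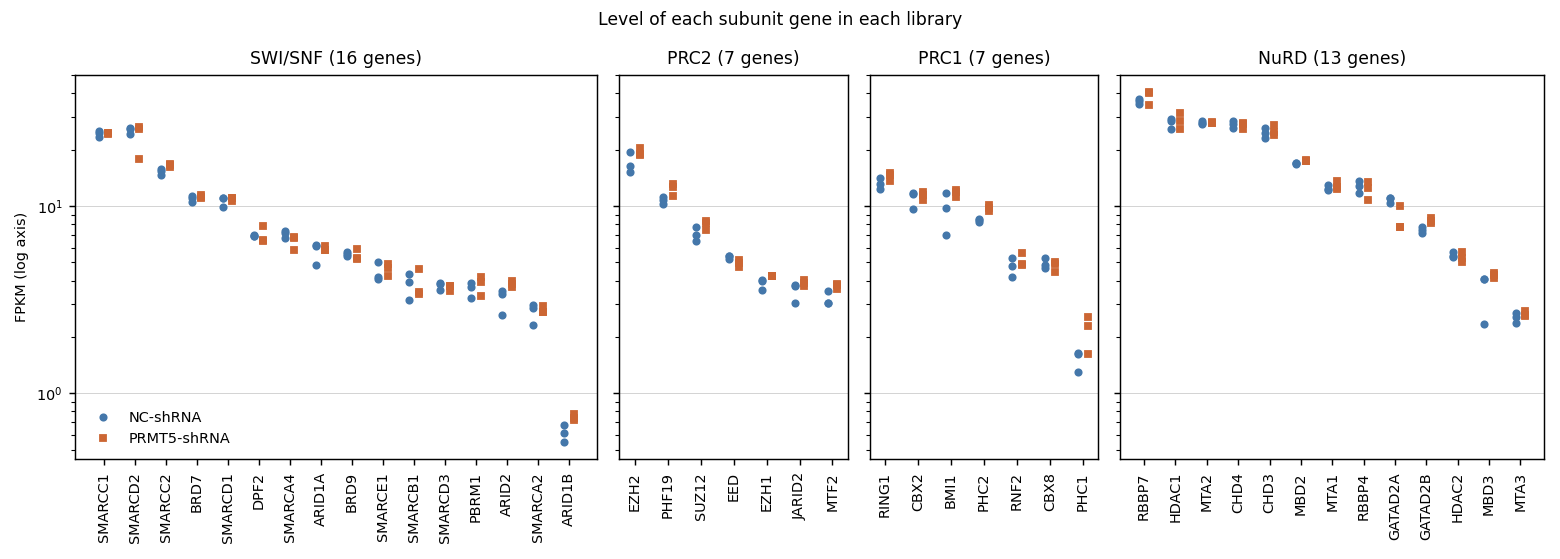
FPKM (log axis) of each of the 43 subunit genes in each of the 3 NC-shRNA libraries (circles) and 3 PRMT5-shRNA libraries (squares), in 1 panel per complex and ordered by mean FPKM. The genes spread over a wide range, from 0.678 for ARID1B to 37.5 for RBBP7, while the 6 libraries of a gene mostly lie together, with single libraries of MBD3, BMI1 and SMARCD2 below the rest.

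In SWI/SNF the catalytic ATPases were SMARCA4 and SMARCA2. SMARCA4 had 142, 135 and 125 CPM in NC-shRNA and 122, 125 and 105 CPM in PRMT5-shRNA cells. The 3 PRMT5-shRNA libraries all lay below the lowest control, but the highest of them only narrowly (125.0 against 125.4 CPM). The log2 fold change of SMARCA4 was -0.19 (standard error 0.0868), which did not pass (adjusted p = 0.41 in edgeR's quasi-likelihood test). It ran from -0.24 to -0.12 as single libraries were left out. After a correction for gene length it was -0.31 (adjusted p = 0.305 in edgeR's quasi-likelihood test). SMARCA2 ranged from 52.5 to 65.5 CPM in NC-shRNA and from 58.0 to 61.8 CPM in PRMT5-shRNA cells, a log2 fold change of -0.02, and the groups overlapped.

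SMARCC1, a core scaffold subunit (chromosome 3, 47585272 to 47782106, minus strand of GRCh38, ENSG00000173473), had 219, 229 and 219 CPM in NC-shRNA and 214, 213 and 214 CPM in PRMT5-shRNA cells. The PRMT5-shRNA libraries all lay below the NC-shRNA libraries, by a log2 fold change of only -0.06 (95% interval -0.17 to 0.06, adjusted p = 0.656 in edgeR's quasi-likelihood test). SMARCD2, a subunit of the same core (chromosome 17, 63832081 to 63843065, minus strand, ENSG00000108604), had 119, 115 and 106 CPM in NC-shRNA and 111, 115 and 75.4 CPM in PRMT5-shRNA cells. Its log2 fold change of -0.18, with a standard error of 0.157 (adjusted p = 0.68 in edgeR's quasi-likelihood test), rested on PRMT5-shRNA replicate 3 and was -0.01 without that library.

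The ARID subunits tell the forms of SWI/SNF apart, since ARID1A and ARID1B mark the canonical form and ARID2 the form that also holds PBRM1 and BRD7. ARID1B had 33.3, 36.3 and 29.1 CPM in NC-shRNA and 39.7, 37.2 and 37.7 CPM in PRMT5-shRNA cells. ARID2 had 38.6, 48.8 and 49.5 CPM in NC-shRNA and 53.2, 51.3 and 54.7 CPM in PRMT5-shRNA cells. Both were above all control libraries, each with a log2 fold change of 0.22, and neither passed (adjusted p = 0.414 and 0.439 in edgeR's quasi-likelihood test). ARID1B turned to -0.02 after a correction for gene length and was 0.13 without NC-shRNA replicate 3, and ARID2 was 0.11 without NC-shRNA replicate 1. ARID1A had a log2 fold change of -0.00, with 93.8 to 118 CPM in NC-shRNA and 106 to 113 CPM in PRMT5-shRNA cells. The other SWI/SNF genes (SMARCB1, SMARCC2, SMARCD1, SMARCD3, SMARCE1, PBRM1, BRD7, BRD9 and DPF2) had log2 fold changes from -0.10 to 0.05, and the groups overlapped in each. In all, 12 of the 16 SWI/SNF genes were lower and 4 higher with a median of -0.03, a split that turned to 5 lower and 11 higher with a median of 0.028 on log2(FPKM + 1) and went to 15 lower and 1 higher after a correction for gene length. In these settings the median of all genes tested was 0.039 and -0.032.

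BRD9, the bromodomain subunit of the non-canonical form, overlaps the protein-coding gene ZDHHC11 on the same strand. That gene held 1573 to 2430 counts per library. With the counts of both summed, the log2 fold change of BRD9 went from -0.09 to 0.05. How the counting treated strand and overlapping genes is not given in the sources used here.

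In PRC2, 6 of the 7 genes were higher in PRMT5-shRNA cells and EED was lower, with a median log2 fold change of 0.11. EED, the subunit that binds methylated lysine 27 and activates the enzyme (chromosome 11, 86244544 to 86278813, plus strand, ENSG00000074266), had 45.3, 44.0 and 41.7 CPM in NC-shRNA and 38.7, 37.1 and 40.0 CPM in PRMT5-shRNA cells. All 3 PRMT5-shRNA libraries were below the lowest control, with a log2 fold change of -0.18 (standard error 0.0708, 95% interval -0.34 to -0.01), a level of 88.5% of NC-shRNA. Its unadjusted p was 0.0422 and its adjusted p 0.369 in edgeR's quasi-likelihood test, and the unadjusted p stayed under 0.05 in 9 of 17 other settings. Among the 9 was the summing of overlapping genes, which left the counts of EED as they were.

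EZH2, the main methyltransferase of PRC2 (chromosome 7, 148807383 to 148884321, minus strand, ENSG00000106462), had 84.4, 88.7 and 103 CPM in NC-shRNA and 96.6, 98.8 and 105 CPM in PRMT5-shRNA cells. The groups overlapped, with a log2 fold change of 0.12 (standard error 0.0874, 95% interval -0.08 to 0.33, adjusted p = 0.597 in edgeR's quasi-likelihood test). SUZ12, which joins EED and either methyltransferase in the core, had 52.0, 54.8 and 59.2 CPM in NC-shRNA and 60.8, 56.4 and 62.2 CPM in PRMT5-shRNA cells, again overlapping. EZH1, the alternative methyltransferase, and MTF2, an accessory subunit, lay above all controls in the 3 PRMT5-shRNA libraries, with log2 fold changes of 0.08 and 0.17. PHF19 (0.14) and JARID2 (0.08), the remaining accessory subunits, overlapped between the groups. EED thus had a difference of opposite sign to those of EZH2, SUZ12 and EZH1, the genes of its core partners, and none of these differences passed the adjusted threshold.

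In PRC1, 5 of the 7 genes were higher and 2 lower, with a median log2 fold change of 0.07 that ran from 0.033 to 0.14 as single libraries were left out. PHC2, a Polyhomeotic subunit that lets PRC1 form larger assemblies (chromosome 1, 33323623 to 33431052, minus strand, ENSG00000134686), had 49.9, 50.3 and 49.6 CPM in NC-shRNA and 58.1, 54.4 and 55.3 CPM in PRMT5-shRNA cells. All PRMT5-shRNA libraries were above the controls, which lay close together, with a log2 fold change of 0.16 (standard error 0.061, 95% interval 0.02 to 0.31) or 112% of NC-shRNA. The unadjusted p of PHC2 was 0.0316 and its adjusted p 0.339 in edgeR's quasi-likelihood test, and the unadjusted p stayed under 0.05 in 9 of 17 other settings. Among the 9 was the summing of overlapping genes, which left the counts of PHC2 as they were.

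The paralog PHC1 had the largest positive log2 fold change of the 43, at 0.43 (SE 0.196, adjusted p = 0.412 in edgeR's quasi-likelihood test), and was also the lowest expressed in CPM. It had 12.4, 9.49 and 11.7 CPM in NC-shRNA and 16.1, 18.0 and 11.3 CPM in PRMT5-shRNA cells. Of the PRMT5-shRNA libraries 2 lay above all controls and replicate 3 lay among them, and the log2 fold change was 0.60 without that library, 0.29 without PRMT5-shRNA replicate 2 and 0.33 without NC-shRNA replicate 2.

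RING1, a catalytic ubiquitin ligase subunit (chromosome 6, 33208495 to 33212722, plus strand, ENSG00000204227), had 31.1, 28.4 and 26.2 CPM in NC-shRNA and 30.4, 31.6 and 28.0 CPM in PRMT5-shRNA cells. These overlapped, with a log2 fold change of 0.07 (95% interval -0.16 to 0.30, adjusted p = 0.799 in edgeR's quasi-likelihood test). Its paralog RNF2, the other ligase subunit, had a log2 fold change of 0.04, and the chromodomain genes CBX2 and CBX8, neighbours on chromosome 17, had -0.01 and -0.11. BMI1, a partner of the ligases, had 52.3, 36.6 and 60.4 CPM in NC-shRNA and 61.5, 57.0 and 59.7 CPM in PRMT5-shRNA cells. Its log2 fold change of 0.26 (adjusted p = 0.579 in edgeR's quasi-likelihood test) was 0.07 without NC-shRNA replicate 2 and 0.42 without NC-shRNA replicate 3.

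In NuRD the largest difference was in GATAD2A, which encodes a zinc-finger subunit that links the methyl-binding and remodelling parts of the complex. GATAD2A (chromosome 19, 19385826 to 19508931, plus strand, ENSG00000167491) had 92.6, 96.1 and 93.7 CPM in NC-shRNA and 83.6, 64.8 and 64.1 CPM in PRMT5-shRNA cells. All 3 PRMT5-shRNA libraries were below the controls, with replicate 1 the nearest to them, and the means were 94.1 ± 1.77 and 70.8 ± 11.1 CPM (SD, n = 3 each). The log2 fold change was -0.41 (standard error 0.110, 95% interval -0.67 to -0.15), or 75.2% of NC-shRNA. This had an unadjusted p of 0.0076 and did not pass in edgeR's quasi-likelihood test (adjusted p = 0.245). DESeq2 called it at an adjusted p of 0.0463 and called no other subunit gene, where it called 3.17% of the 16723 genes to which it gave an adjusted p. The sign of GATAD2A was the same in 17 of 17 other settings, with log2 fold changes from -0.55 to -0.33 and adjusted p from 0.0463 to 0.494, and DESeq2 was the only setting under 0.05. One of these settings, the summing of overlapping genes, left the counts of GATAD2A as they were, so its result there was fixed in advance. Of the 43 genes, 31 overlap an annotated gene on the opposite strand, GATAD2A and PHC2 among them, and for 10 it is protein-coding (SMARCB1, SMARCC2, SMARCD3, PBRM1, BRD7, BRD9, PHC1, CHD3, RBBP4 and RBBP7). Without the strand setting of the counting, their reads and those of the overlapping gene cannot be told apart with certainty.

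The paralog GATAD2B, which takes the same place in the complex, had 83.9, 78.7 and 84.0 CPM in NC-shRNA and 88.1, 86.3 and 90.5 CPM in PRMT5-shRNA cells. All its PRMT5-shRNA libraries were above the controls, with a log2 fold change of 0.10 that did not pass (adjusted p = 0.502 in edgeR's quasi-likelihood test). The log2 ratio of GATAD2A to GATAD2B, taken on FPKM + 0.1 within each library, was 0.48, 0.62 and 0.49 in NC-shRNA and 0.26, -0.07 and -0.16 in PRMT5-shRNA cells. Its mean went from 0.53 ± 0.078 to 0.01 ± 0.22 (SD, n = 3 each), so the genes that stood apart in the controls were on average nearly equal in PRMT5-shRNA cells.

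Among 19 pairs of paralogs or alternative subunits compared in this way, the ratios of 3 did not overlap between the groups. Besides GATAD2A/GATAD2B, with a difference in log2 ratio of -0.52, these were ARID1A/ARID2, from 0.83 to 0.61, and SMARCC1/SMARCC2, from 0.67 to 0.56. Each had an exact two-sided permutation p of 0.10, the smallest that 3 libraries against 3 allow, and 0.633 after Benjamini-Hochberg adjustment over the 19 pairs. The share of non-overlapping ratios among other gene pairs was not measured. For single genes, the groups did not overlap in CPM in 21.7% of all genes tested. Differences of the other 16 ratios lay within overlapping groups, MBD3/MBD2 having the widest spread in a group. The order of abundance of paralogs depended on the length used. Per kilobase of the longest principal transcript, SMARCC1/SMARCC2 went from 1.53 to 0.815 as a linear ratio and BRD7/BRD9 from 2.02 to 0.720, and the order of the remaining pairs was kept.

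**Figure D3:**
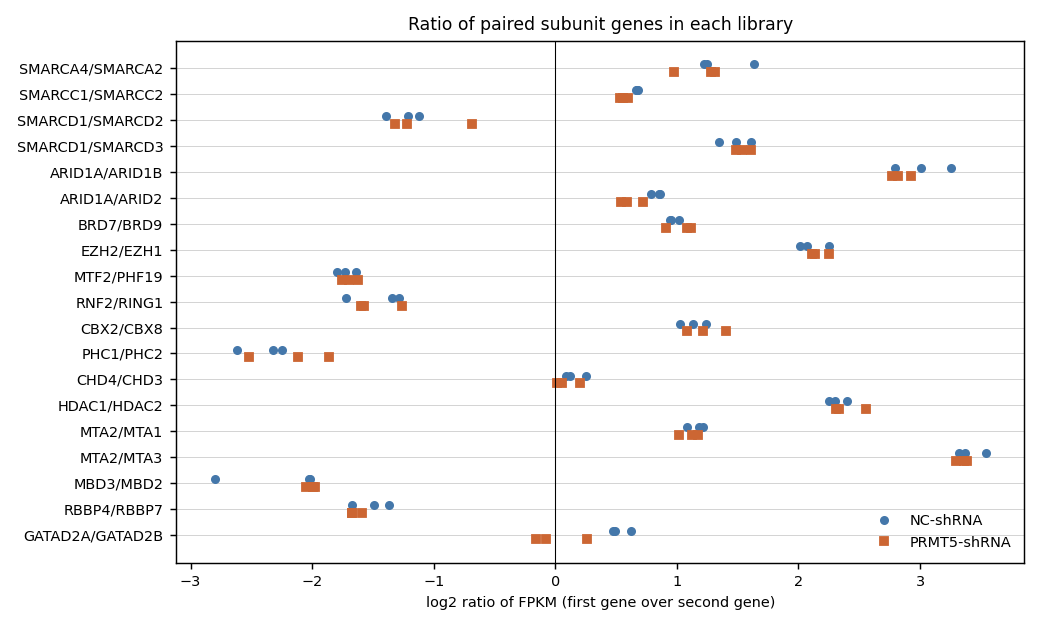
The log2 ratio of FPKM + 0.1 of 19 pairs of subunit genes in each of the 3 NC-shRNA libraries (circles) and 3 PRMT5-shRNA libraries (squares), with zero where both genes are equal. GATAD2A/GATAD2B at the bottom moves from a mean of 0.53 to 0.01, and for SMARCA4/SMARCA2, HDAC1/HDAC2 and most other pairs the circles and squares overlap.

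The remodelling ATPases of NuRD, CHD4 and CHD3, had 387 to 444 and 270 to 312 CPM in NC-shRNA and 379 to 401 and 268 to 304 CPM in PRMT5-shRNA cells, with log2 fold changes of -0.08 and -0.02. The deacetylase genes HDAC1 and HDAC2 had log2 fold changes of -0.01 and -0.10. HDAC2 had 99.8, 99.1 and 102 CPM in NC-shRNA and 88.5, 94.0 and 98.7 CPM in PRMT5-shRNA cells, narrowly apart. RBBP7, a histone-binding subunit (chromosome X, 16839283 to 16870414, minus strand, ENSG00000102054), had 339, 311 and 314 CPM in NC-shRNA and 295, 342 and 342 CPM in PRMT5-shRNA cells, overlapping, with a log2 fold change of 0.02 (95% interval -0.16 to 0.20, adjusted p = 0.93 in edgeR's quasi-likelihood test). RBBP4, the paralog of RBBP7, had a log2 fold change of -0.11.

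MTA1, MTA2 and MTA3, the scaffold proteins that hold the deacetylases, had log2 fold changes of -0.01, -0.06 and 0.00, and only MTA2 was apart between the groups, with 138 to 145 CPM in NC-shRNA and 135 to 137 CPM in PRMT5-shRNA cells. MBD2 and MBD3 are alternative methyl-CpG-binding-domain subunits, of which MBD2 defines the NuRD form found with PRMT5. MBD2 had 118, 115 and 111 CPM in NC-shRNA and 115, 114 and 113 CPM in PRMT5-shRNA cells, a log2 fold change of -0.02 (95% interval -0.14 to 0.11). MBD3 had 39.6, 22.2 and 37.6 CPM in NC-shRNA and 39.9, 37.6 and 38.7 CPM in PRMT5-shRNA cells. The log2 fold change of MBD3, 0.22, came from NC-shRNA replicate 2 and was 0.00 without it. Of the 13 NuRD genes 9 were lower and 4 higher with a median of -0.02, which turned to 5 lower and 8 higher with a median of 0.042 on log2(FPKM + 1) and went to 11 lower and 2 higher after the correction for gene length. The median of all genes tested was 0.039 and -0.032 in these settings.

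Replicates of a subunit gene lay close together. In 73 of 86 gene and group pairs the highest library was under 1.25 times the lowest, and the median coefficient of variation was 5.55%. The median of all 43 genes in a library, relative to the NC-shRNA mean of each gene, lay between -0.01 and 0.02 on the log2 scale in all 6 libraries. The median over the PRC2 genes was 0.13, 0.05 and 0.16 in the PRMT5-shRNA libraries and -0.04, -0.05 and 0.08 in the NC-shRNA libraries, so these overlapped.

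**Figure D4:**
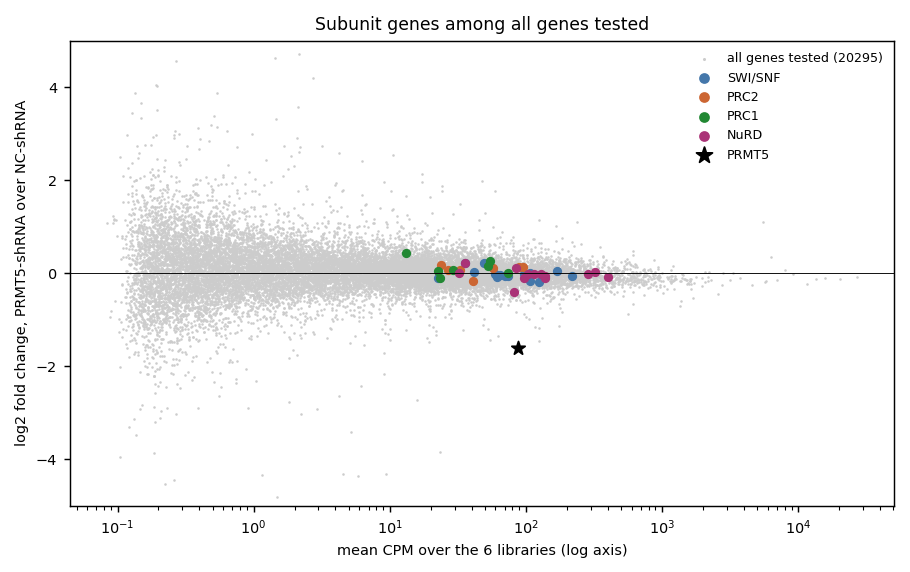
The log2 fold change, PRMT5-shRNA over NC-shRNA, of 20295 genes tested (grey) against mean CPM over the 6 libraries (log axis), with the subunit genes coloured by complex and PRMT5 as a star at -1.62. The subunit genes lie within the band of similarly expressed genes, between -0.41 and 0.43, and 17 genes with larger changes fall outside the plotted range.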

How the data were processed

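RNA from 6 NCI-H460 cultures, 3 per group, was sequenced as stranded mRNA libraries, and the paper describes them as biological replicates. Per the labels and the submitters' processing notes, the authors trimmed reads with cutadapt 1.9, aligned them with HISAT2 2.0.4 and made estimated counts per gene with StringTie 1.3.4d on GRCh38. The paper's methods name GRCm38, a mouse build. Of 58825 gene identifiers, 58552 were found in GENCODE 29, from which positions and overlaps were taken. The annotation and strand setting used for counting are not given in the sources used here. The estimated counts were deposited without normalization and were already whole numbers, and the authors also deposited FPKM values.

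Counts were scaled with TMM, filtered with filterByExpr and tested with edgeR 4.0.16 in R 4.3.3 (glmQLFit and glmQLFTest, no covariates), with Benjamini-Hochberg adjustment over 20295 genes. Standard errors and 95% intervals were derived from the F statistic. Exact permutation tests used SciPy 1.17.1. The fit was tested on simulated data. Alternatives were DESeq2 1.42.0, DESeq2 size factors, upper-quartile factors, no filter, limma 3.58.1 on log2(FPKM + 1 or 0.1) with a minimum mean FPKM of 0.5 or none, a replicate block, a correction of each library for exon length, and each library left out. Summing a gene with an overlapping protein-coding gene, and the level per principal transcript, were added after seeing the data. All 43 genes were named. Those with an unadjusted p under 0.05 or the highest mean FPKM of their complex were described in full, paralog pairs where their ratios did not overlap, and at most 10 related genes with the smallest unadjusted p under 0.05. SMARCA2, SMARCA4, ARID1A, ARID1B, ARID2, PHC1, BMI1, CHD3, CHD4, MTA2, MBD2, MBD3, HDAC2, SUZ12, BRD9 and GATAD2B were given values beyond this rule, after their values were seen. The members and lists were chosen with earlier results of these data known. Of 172 listed symbols, 171 had a row in the tables. No pair of libraries in a group was near counting noise (chi-square per degree of freedom at least 43.1), so none was treated as a duplicate.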

Additional observations from a re-analysis of the deposited data

How the results depend on the processing

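Over 17 other settings per gene, 647 of 731 log2 fold changes of the subunit genes kept their sign, 84 did not, and 23 of 43 genes kept it throughout. The setting that summed overlapping protein-coding genes applied to only 6 of the 43 and left the counts of the others as they were. The largest log2 fold change that turned was that of ARID1B, 0.22, which was -0.02 after the length correction. The 1 added call was GATAD2A in DESeq2, so 1 subunit gene was lower there at an adjusted p under 0.05. DESeq2 called 303 genes higher and 227 lower where edgeR's quasi-likelihood test called 10 and 4, while unfiltered limma on log2(FPKM + 1) called 1 higher. At an unadjusted p under 0.05, edgeR had 1328 genes higher and 1277 lower, unfiltered limma 2017 higher, limma with the filter 760 lower at a pseudocount of 1 and 749 at 0.1 against 1549 higher at both, and the length correction 974 higher and 1849 lower. The median of all genes moved by under 0.1 in every setting. It went from 0.0075 to 0.039 and 0.050 in the filtered limma fits (pseudocount 1 and 0.1) and to 0.013 in the unfiltered one. After the length correction it was -0.032. The subunit medians given below for these settings moved in the same directions.

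Among the 43 subunit genes, 1 was higher and 2 lower at an unadjusted p under 0.05 in edgeR's main fit. DESeq2 gave 2 higher, and each limma fit 4 higher and 1 lower. The length correction gave 0 higher and 5 lower (SMARCA4, SMARCC1, EED, HDAC2 and GATAD2A). Over all genes, filtered limma at a pseudocount of 1 counted 1549 higher and 760 lower of 14707. The unfiltered fit counted 2017 and 1068 of 32052. DESeq2 counted 1325 higher of 20265, and the length correction 974 higher and 1849 lower of 20295. In the limma fits the median of SWI/SNF was 0.028 at a pseudocount of 1, filtered or not, and 0.031 at 0.1, that of NuRD 0.042 and 0.044, and that of all 43 genes 0.047 and 0.054. After the length correction these medians were -0.12, -0.082 and -0.065. Related chromatin genes, 2 higher and 2 lower, had 6, 6 and 7 higher and 0, 0 and 1 lower in the limma fits (pseudocount 1, 0.1, and 1 without a filter). The cause of these changes was not tested.

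Libraries with the same replicate number were no more alike than others. Correlations of deviations from the group means were 0.0012, -0.039 and 0.064 for replicates 1, 2 and 3, and -0.10 to 0.10 between unlike numbers. These values cannot settle whether the cultures were made in pairs. When edgeR's fit held the replicate block, 0 genes higher and 0 lower had an adjusted p under 0.05 (1203 and 1179 unadjusted). PRMT5 had a log2 fold change of -1.62 (adjusted p = 0.144), and 0 subunit genes were higher and 2 lower unadjusted, SMARCA4 and GATAD2A. With the block and the length correction, 0 higher and 0 lower passed (875 and 1760 unadjusted), PRMT5 was at -1.65, 0 subunit genes were higher and 5 lower unadjusted, and the medians of SWI/SNF, NuRD and all 43 genes were -0.12, -0.079 and -0.064.

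With 1 library left out, where edgeR's adjusted threshold passed 4 to 16 genes higher and 3 to 10 lower, 0 subunit genes passed it, 0 to 3 were higher and 1 to 3 lower unadjusted. The fewest genes higher, 4, came without PRMT5-shRNA replicate 1, the most, 16, without NC-shRNA replicate 3, and the most lower, 10, without PRMT5-shRNA replicate 2. EED was over 0.05 unadjusted without NC-shRNA replicate 1 or 2 or PRMT5-shRNA replicate 1 or 2, and PHC2 without any library but PRMT5-shRNA replicate 2. Medians ranged from -0.055 to 0.0046 for NuRD, -0.054 to -0.0050 for SWI/SNF, -0.013 to 0.014 for all 43 genes, 0.069 to 0.15 for PRC2 (0.060 after the length correction) and 0.033 to 0.14 for PRC1, and 2 to 4 related genes were higher and 1 to 3 lower unadjusted.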

Other observations

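Genes of the same machinery outside the 43 were listed from general knowledge of these complexes with earlier results of these data known. Of 64 such genes (other SWI/SNF, Polycomb and NuRD subunits, the H2A deubiquitinase, and the ISWI and INO80 families), 62 were tested, 39 higher and 23 lower in PRMT5-shRNA cells, at a median of 0.05 on the log2 scale. None passed an adjusted threshold of 0.05 (edgeR's quasi-likelihood test), 4 (6.45%, beside 12.8% of all genes tested) had an unadjusted p under 0.05, and DESeq2 (3.17% of all its genes called) called 3 of these at adjusted p of 0.00071 (SMARCA1), 0.0099 (SALL4) and 0.034 (CHD5), while limma called none. SMARCA1, an ISWI-family ATPase, had 14.9, 16.5 and 16.1 CPM in NC-shRNA and 22.1, 22.6 and 26.3 CPM in PRMT5-shRNA cells, a log2 fold change of 0.58 (adjusted p = 0.163 in edgeR's quasi-likelihood test). SALL4, a zinc-finger factor that binds NuRD, had 2.53, 2.83 and 3.07 CPM in NC-shRNA and 4.20, 5.03 and 5.67 CPM in PRMT5-shRNA cells, a log2 fold change of 0.82 (adjusted p = 0.188 in edgeR's quasi-likelihood test). CHD5, an alternative NuRD ATPase, had 3.22, 4.01 and 2.41 CPM in NC-shRNA and 1.72, 1.36 and 0.608 CPM in PRMT5-shRNA cells, a log2 fold change of -1.39 (adjusted p = 0.265 in edgeR's quasi-likelihood test). ACTL6A, an actin-related subunit of SWI/SNF and INO80, had a log2 fold change of -0.24 (adjusted p = 0.384 in edgeR's quasi-likelihood test). The groups did not overlap in 7 of the 62, these 4 among them, or 11.3% beside 21.7% of all genes tested.

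The HOX genes, classical targets of Polycomb silencing, were higher in some cases and lower in others. Of 39 listed, 29 were tested, 11 higher and 18 lower, with a median log2 fold change of -0.09. An unadjusted p under 0.05 was reached by 4 of them (13.8%, near the 12.8% of all genes tested), and none passed the adjusted threshold in edgeR's quasi-likelihood test, DESeq2 or limma. HOXB9 was higher at 0.34, with 19.0, 23.6 and 22.1 CPM in NC-shRNA and 25.3, 25.8 and 30.9 CPM in PRMT5-shRNA cells. HOXA11 (-0.24), HOXB5 (-0.36) and HOXD8 (-1.11) were lower, HOXD8 from only 1.22 to 2.49 CPM in NC-shRNA to 0.629 to 0.861 CPM in PRMT5-shRNA cells.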
